A study of Homo sapiens with 28 samples.

Results

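Sorted A549 cells that had been exposed to TGF-β1 were compared with sorted A549 cells that had been exposed to GSK126. The comparison rests on 10 of the 28 RNA libraries of the study, 5 from TGF-β1 cells and 5 from GSK126 cells, and uses no library of untreated cells. A549 is an established human lung adenocarcinoma line with a KEAP1 mutation and a CDKN2A deletion, and the cells carried MGT#1-mVenus, a synthetic reporter that drives the fluorescent protein mVenus. The TGF-β1 cells received 5 ng/ml of the cytokine for 11 days and gave 2 libraries of the gate with low mVenus fluorescence (A and C) and 3 of the gate with high fluorescence (A, B and C). The GSK126 cells received the compound at 5 µM for 11 days and gave 3 libraries of the low gate (A, B and C) and 2 of the high gate (A and B). In the log2 differences each treatment was taken as the mean of its gates, so that unequal numbers of low and high libraries did not enter. Average levels and summed shares of counts are plain means of the 5 libraries of a treatment, in which the gates weigh unequally. All 10 libraries come from a single line, and nothing in the labels says that the letters were separate cultures, so the p-values measure the spread between these libraries, which may be technical. Because no untreated library enters, a gene that is higher with TGF-β1 may have been raised by TGF-β1 or lowered by GSK126, and the comparison cannot tell these apart.

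TGF-β1 binds the receptors TGFBR2 and TGFBR1, which phosphorylate SMAD2 and SMAD3. With SMAD4 these enter the nucleus and switch on genes of the matrix, the cytoskeleton and the epithelial-mesenchymal transition (EMT), in which epithelial cells lose junctions and take up a migratory, matrix-producing form. GSK126 inhibits EZH2, the enzyme of Polycomb repressive complex PRC2 that places the silencing mark H3K27me3. A549 cells are widely used to study EMT after TGF-β1.

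The strand setting of the counting is not given in the sources used here, so reads of a gene and of an antisense partner cannot be told apart. Library totals were 3004125 to 9550143 counts with TGF-β1 and 2013449 to 4783344 counts with GSK126. Levels are given as CPM, the counts scaled to a common library total, and differences as log2(TGF-β1 over GSK126) ± SE from a single edgeR fit of all genes. KRT7, the keratin of lung glandular epithelium, stood at 3574 CPM with TGF-β1 and 3488 CPM with GSK126, and the deleted gene CDKN2A had 0 counts in all 10 libraries. Other markers of the line were not as even. Of 9 tested markers of A549 cells and lung epithelium, 0 were higher with TGF-β1 and 5 lower, with a median of -1.07. Over all genes tested 11.6% were higher and 15.2% lower. The alveolar markers NKX2-1, SFTPB and SFTPC were at most 1.2 CPM on average with either treatment. The summed level of 376 olfactory receptor genes, which these cells are not known to use and which served as a measure of background reads, ran from 6.99 to 311 CPM with TGF-β1 and from 8.84 to 98.3 CPM with GSK126. The highest value, 311 CPM, belonged to the TGF-β1 high-gate library B, and the lowest values, 6.99 and 8.84 CPM, to the TGF-β1 high-gate library A and the GSK126 high-gate library B. On the first principal component, which held 44.9% of the variance, TGF-β1 high-gate library B (-120) and GSK126 high-gate library B (114) lay at opposite ends. The difference in this background between the treatments did not pass an exact permutation test (two-sided p = 0.429 over 252 arrangements, adjusted p = 0.536 over 5 shares). Counts for the gene groups are also given without TGF-β1 high-gate library B where leaving it out moved a count by about 1.5 times or more. In that fit 2852 of 14945 genes (19.1%) were higher and 2751 (18.4%) lower, 37.5% in all, and those counts are read against these shares. The reporter transcript mVenus had 1135, 997, 3121, 1847 and 2460 CPM with TGF-β1 and 716, 883, 1080, 1235 and 1926 CPM with GSK126. It is the quantity the gates were set on, and the treatments overlapped, with a difference of 0.40 ± 0.20 (adjusted p = 0.172), though it passed in 4 other settings, among them the fit without TGF-β1 high-gate library B (0.58, adjusted p = 0.00365).

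After a filter on low counts, 17098 genes were tested in the mean of the gates. Of these, 4579 genes (26.8%) passed an adjusted p of 0.05, 1981 of them higher with TGF-β1 (11.6% of the genes tested) and 2598 lower (15.2%). At least 2-fold differences were found for 1102 higher genes (6.45%) and 964 lower genes (5.64%), and 209 and 78 of them differed at least 8-fold. The 5 libraries of each treatment did not overlap for 3891 genes (22.8%), of which 3392 also passed the test. Without GSK126 high-gate library B 2270 of 23666 genes passed (1082 higher, 1188 lower), and without TGF-β1 low-gate library C 2649 of 20935. Without GSK126 high-gate library A 3350 of 23636 passed, without TGF-β1 low-gate library A 3399 of 20955 (1410 and 1989) and without TGF-β1 high-gate library A 5174 of 17907. Group counts below from these fits are read against that fit's counts over all genes. Fewer calls in a group need not be particular to it. Which direction held more genes depended on the libraries and the filter. The higher genes were the more numerous without TGF-β1 high-gate library A (2766 higher, 2408 lower), TGF-β1 high-gate library B, GSK126 high-gate library A (1755 and 1595) or TGF-β1 low-gate library C (1334 and 1315), and without a filter on low counts (1668 and 1508) or with one at 1 CPM in 2 libraries (1707 and 1687). The median log2 difference of all genes tested was 0.11, and each gene list below is read against this value and, for counts from all 10 libraries, against the shares of 11.6% and 15.2%.

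The 15 genes furthest above GSK126 were taken from coding genes past the test that had no overlap and the same sign in both gates. Separation of their libraries is thus part of the choice. They included a collagen and a collagen-binding integrin. COL22A1, a collagen of tissue junctions, had 980, 722, 1865, 1470 and 1332 CPM with TGF-β1 and 5.85, 6.95, 10.8, 2.67 and 1.996 CPM with GSK126, a log2 difference of 8.03 ± 0.27 (adjusted p = 7.18e-11). ITGA11, the integrin subunit that binds fibrillar collagen, had 636, 517, 639, 510 and 489 CPM with TGF-β1 and 7.74, 3.48, 5.61, 1.91 and 1.43 CPM with GSK126 (7.40 ± 0.26, adjusted p = 1.01e-10). No TGF-β1 library of either gene came near a GSK126 library. The secreted insulin growth factor-like proteins IGFL3 and IGFL2 averaged 157 and 193 CPM with TGF-β1. With GSK126 IGFL3 had 5 counts in all, and the ratio of its pooled CPM was 477 (exact 95% counting interval 204 to 1469), while IGFL2 had 2.09, 1.49, 0, 1.53 and 0.285 CPM (7.36 ± 0.43). The late cornified envelope genes LCE3D and LCE3E, known from stratified epithelium, averaged 84.7 and 27.7 CPM with TGF-β1. LCE3D had 1 count and LCE3E 0 counts over the 5 GSK126 libraries, so that LCE3E was at least 136-fold higher against a floor of 3 counts over the treatment, and LCE3D had a ratio of 1245 (223 to 49208). IGFL and LCE3 genes have close copies beside them, and how reads that fit several copies were counted was not given. CDH11, a mesenchymal cadherin, averaged 582 ± 159 CPM with TGF-β1 and 10.1 ± 4.68 CPM with GSK126 (SD, n = 5 each), a difference of 5.95 ± 0.21. The group also held WNT5B, a non-canonical WNT ligand (6.01 ± 0.44), PDPN, the podoplanin of alveolar type I cells (5.67 ± 0.48), BMF, a pro-apoptotic BH3 protein (5.75 ± 0.43), BCL2A1, an anti-apoptotic relative of BCL2 (7.19 ± 0.40), TSPAN2 (6.37 ± 0.40), MEDAG (6.40 ± 0.70), FOXS1 and SLAMF9. FOXS1 had 2 counts and SLAMF9 3 counts with GSK126, which gave pooled ratios of 86.8 (23.9 to 720) and 85.4 (29.1 to 416).

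The 15 genes furthest below GSK126, chosen by the same rule, included 2 mucins and 3 fibrinogen chains. MUC5AC, the gel-forming mucin of airway goblet cells, had 3.39, 2.34, 0, 5.99 and 1.89 CPM with TGF-β1 and 646, 806, 586, 548 and 1007 CPM with GSK126, a difference of -8.10 ± 0.40 (adjusted p = 2.15e-09). MUC5B, the mucin of airway submucosal glands, had 1.82, 0.624, 0, 4.21 and 0.733 CPM with TGF-β1 and 274, 305, 250, 225 and 360 CPM with GSK126 (-7.71 ± 0.39). AGR2, a protein disulfide isomerase needed to fold mucins, had 3.52, 2.96, 0, 2.88 and 1.15 CPM with TGF-β1 and 222, 282, 355, 209 and 204 CPM with GSK126 (-6.88 ± 0.29). In all 3 genes every TGF-β1 library lay far below every GSK126 library. The 3 fibrinogen chains FGG, FGB and FGA differed by -6.04 ± 0.54, -5.79 ± 0.46 and -4.97 ± 0.49. They varied among the GSK126 libraries more than the mucins did, since GSK126 low-gate library C had 334 CPM of FGG and the other 4 had 47.9 to 74.8 CPM. Also among the 15 were the adhesion protein CEACAM6 (-5.93 ± 0.19), the matrix protease MMP7 (-5.68 ± 0.24), the apical transport protein MAL2 (-5.16 ± 0.17), FGFBP1, which releases FGF from the matrix (-4.87 ± 0.22), KRT19 (-4.87 ± 0.19), the water channel AQP3 (-4.83 ± 0.35), the protease inhibitor SLPI (-4.81 ± 0.36), the lipid hydroxylase FA2H (-4.68 ± 0.35) and the glutathione peroxidase GPX2 (-6.44 ± 0.25).

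**Figure D1:**
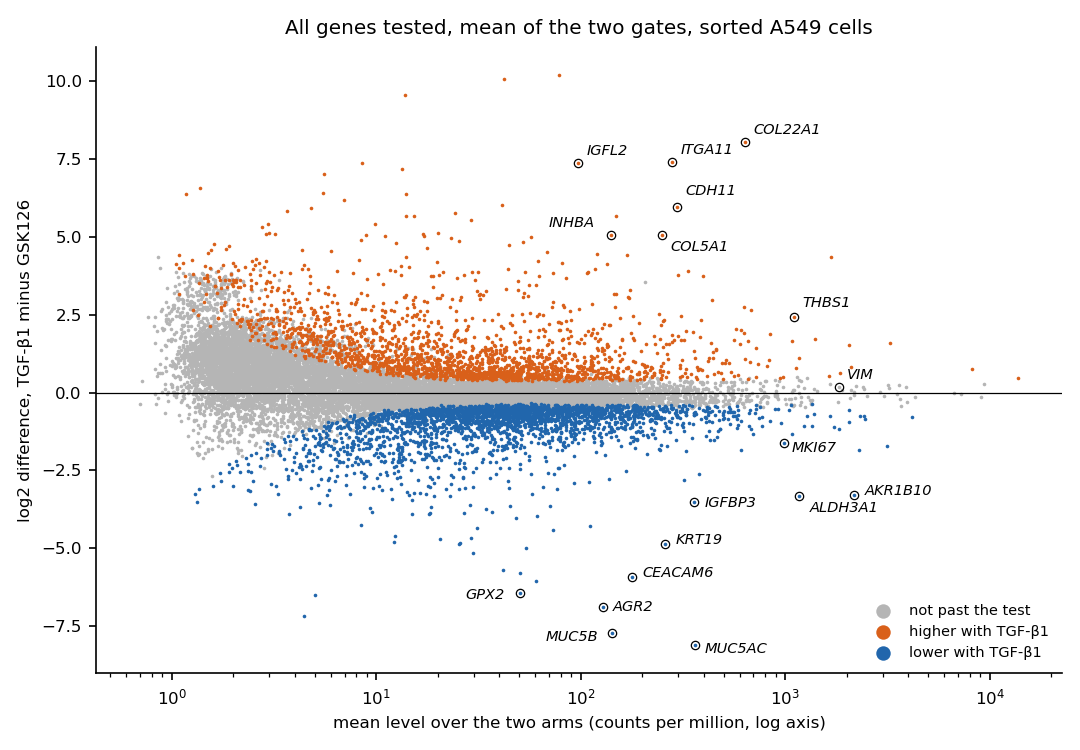
Log2 difference (TGF-β1 minus GSK126) against the mean level of the treatments in CPM on a log axis, 1 point per gene tested, orange for genes higher and blue for genes lower with TGF-β1 past the test. COL22A1 and ITGA11 stand out at the top at 8.03 and 7.40 and MUC5AC and MUC5B at the bottom at -8.10 and -7.71, while VIM lies near 0 at 0.17.

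Of 46 tested genes of TGF-β and BMP signalling, 16 were higher with TGF-β1 and 7 lower, and the median was 0.30. Without TGF-β1 high-gate library B, 24 of 45 were higher and 8 lower. Among ligands, INHBA, the activin A subunit, had 173, 128, 422, 318 and 335 CPM with TGF-β1 and 7.11, 3.48, 9.93, 5.73 and 7.13 CPM with GSK126 (5.04 ± 0.25), with its 3 high-gate TGF-β1 libraries above its 2 low-gate ones. BMP2 (3.75 ± 0.29) and BMP6 (2.06 ± 0.39) were higher too. The ligands BMP4 (-2.66 ± 0.20), INHBB (-3.14 ± 0.40) and GDF15 (-3.25 ± 0.43) were lower with TGF-β1. The genes of the TGF-β ligands themselves did not pass the test, with 0.40 ± 0.20 for TGFB1 (0.17 to 0.64 with single libraries left out, and past the test in 4 other settings, among them without TGF-β1 high-gate library B), -0.27 ± 0.16 for TGFB2 and 0.70 ± 0.62 for TGFB3. All 4 latent TGF-β binding proteins, which hold the inactive cytokine in the matrix, were higher, from 1.04 ± 0.16 for LTBP1 to 1.81 ± 0.18 for LTBP2.

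Among receptors, TGFBR1 averaged 208 CPM with TGF-β1 and 61.0 CPM with GSK126 (1.57 ± 0.16), and BMPR2, a type II BMP receptor, averaged 247 and 73.2 CPM in the same order (1.68 ± 0.15). TGFBR2, the receptor that binds the ligand first, had 0.10 ± 0.18 (adjusted p = 0.716), and the co-receptor TGFBR3 was lower (-1.61 ± 0.21). Of the signal transducers, SMAD3 had 194, 177, 174, 165 and 158 CPM with TGF-β1 and 348, 344, 275, 367 and 411 CPM with GSK126 and was lower (-1.08 ± 0.14), while SMAD2 (0.24 ± 0.14) and SMAD4 (0.26 ± 0.12) did not pass, although both did without TGF-β1 high-gate library B (0.37 and 0.33). The feedback inhibitors SMAD7 (1.04 ± 0.15), PMEPA1 (1.92 ± 0.18), LDLRAD4 (4.07 ± 0.33), SKIL (1.64 ± 0.15), SMURF1 (0.71 ± 0.16) and SMURF2 (0.57 ± 0.14) were higher with TGF-β1. Both SMURF genes lost the call without GSK126 high-gate library A (adjusted p = 0.154 and 0.103), and SMURF2 also without GSK126 high-gate library B or TGF-β1 low-gate library C. SKI (-0.325 ± 0.222), BAMBI (0.24 ± 0.19) and TGIF1 (0.35 ± 0.16), which also restrain the pathway, did not pass. BAMBI passed in 2 other settings and TGIF1 in 8. SMAD6, which restrains BMP signals, was lower (-1.34 ± 0.20). The secreted antagonists differed in direction. GREM1, which binds BMPs, had 191 to 342 CPM with TGF-β1 and 7.41 to 18.4 CPM with GSK126 (4.11 ± 0.24), and FST, which binds activin, had 4.19 to 8.66 CPM with TGF-β1 and 45.7 to 65.6 CPM with GSK126 (-3.02 ± 0.21).

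**Figure D2:**
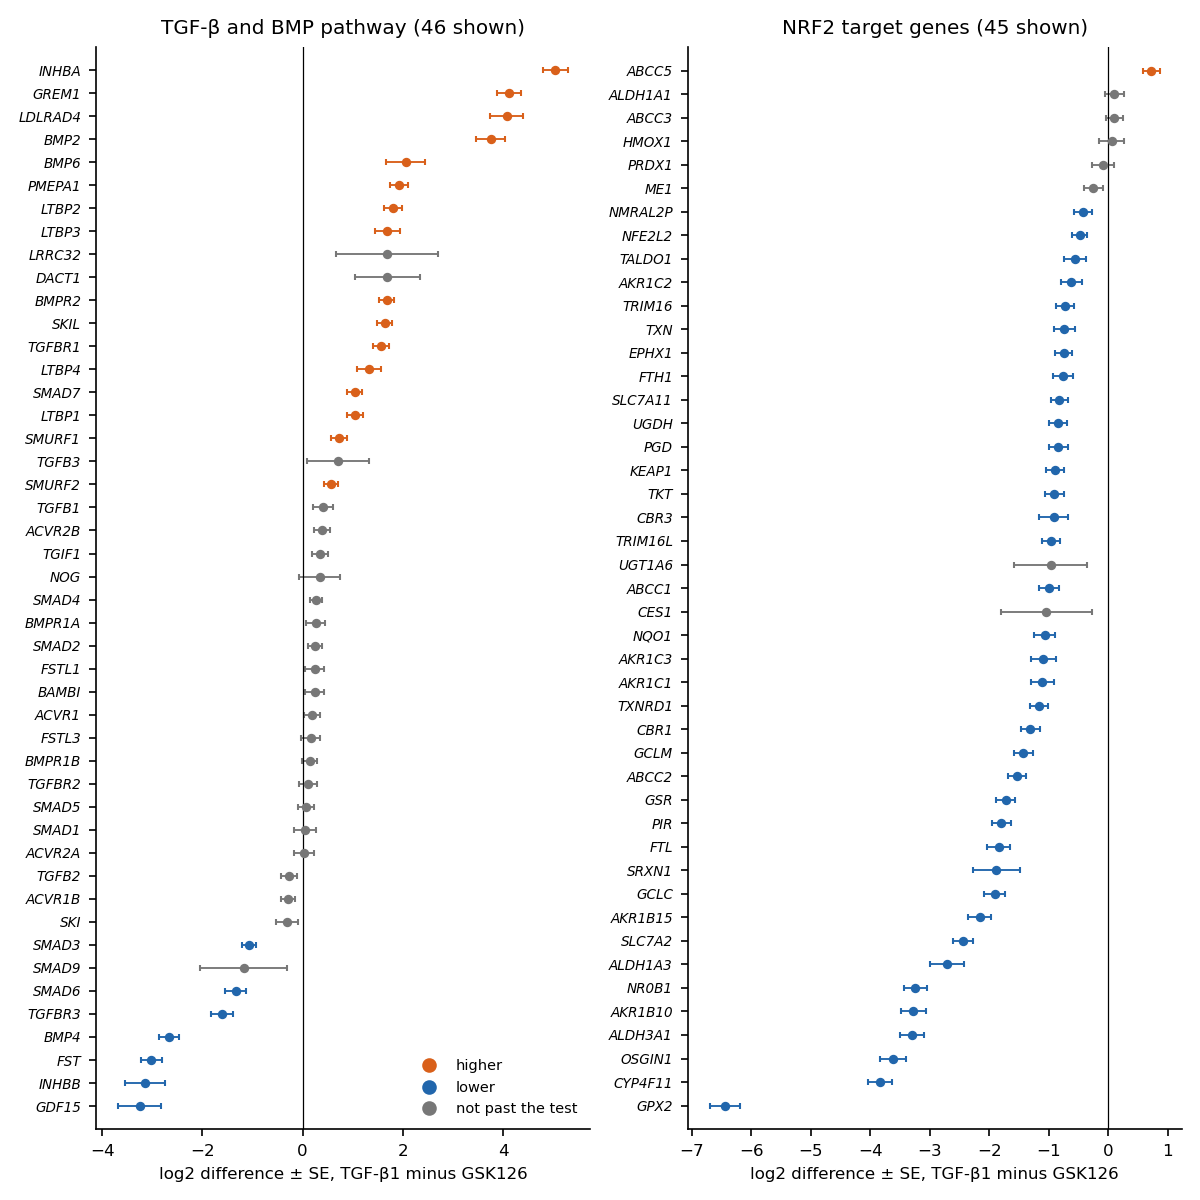
Log2 differences (TGF-β1 minus GSK126) with SE bars for the 46 tested genes of TGF-β and BMP signalling (left) and 45 of the 46 tested NRF2 target genes (right), orange and blue for genes higher and lower past the test and grey for the others. The pathway genes spread to both sides, from 5.04 for INHBA to -3.25 for GDF15, and most NRF2 targets shown lie below 0, down to -6.44 for GPX2.

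Known TGF-β target genes were mostly higher. Of 36 tested, 28 were higher with TGF-β1 and 1 was lower, with a median of 1.87. IL11, a cytokine of fibrotic tissue, had 125, 113, 186, 125 and 137 CPM with TGF-β1 and 8.78, 6.95, 8.20, 11.1 and 8.84 CPM with GSK126 (3.83 ± 0.20). TAGLN, an actin-binding protein of smooth muscle, averaged 101 CPM with TGF-β1 and 3.30 CPM with GSK126 (4.85 ± 0.25), and ADAM19, a membrane protease, averaged 738 and 52.2 CPM (3.73 ± 0.19). In these genes the treatments did not overlap. NOX4, the NADPH oxidase of myofibroblasts (4.04), and PDGFB, a ligand for stromal cells (3.77), followed. The lower gene was IGFBP3, an insulin-like growth factor binding protein, at 56.8 CPM with TGF-β1 and 659 CPM with GSK126 (-3.52 ± 0.22).

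BMP target genes went the other way. Of 10 tested, 0 were higher with TGF-β1 and 5 were lower, with a median of -1.25, and without TGF-β1 high-gate library B 1 was higher and 6 were lower. ID2, an inhibitor of basic helix-loop-helix factors, had 13.9, 14.7, 6.66, 9.09 and 10.3 CPM with TGF-β1 and 53.9, 68.0, 73.8, 63.0 and 71.0 CPM with GSK126 (-2.61 ± 0.16). Its relatives ID4 (-3.88 ± 0.30) and ID1 (-1.15 ± 0.23), the homeobox factor MSX2 (-1.57 ± 0.24) and SMAD6 were the others.

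The transcription factors that drive EMT showed no common direction. Of 16 tested, 4 were higher with TGF-β1 and 4 lower, with a median of -0.02. SNAI2 had 43.9, 39.6, 41.9, 38.4 and 37.9 CPM with TGF-β1 and 36.2, 39.7, 34.1, 30.9 and 43.3 CPM with GSK126 (0.06 ± 0.15, adjusted p = 0.78). ZEB1 had 144, 149, 106, 174 and 141 CPM with TGF-β1 and 99.1, 118, 117, 104 and 72.7 CPM with GSK126, and it passed the test with overlapping libraries (0.46 ± 0.14, adjusted p = 0.0282). The ZEB1 call was lost in 12 of the alternative settings, among them the replicate block (adjusted p = 0.0644). ZEB2 passed in the other direction, also with overlapping libraries (-0.98 ± 0.28). SOX4, a factor that TGF-β is known to induce, averaged 215 CPM with TGF-β1 and 45.3 CPM with GSK126 (2.202 ± 0.21), and TCF4 (1.38 ± 0.14) and the chromatin protein HMGA2 (0.81 ± 0.19) were higher as well, HMGA2 not without GSK126 high-gate library A (adjusted p = 0.075). TWIST1 was lower, at 1.71 CPM with TGF-β1 and 10.9 CPM with GSK126 (-2.85 ± 0.36), as were FOXC1 (-1.31 ± 0.19) and the AP-1 subunit FOSL1 (-2.52 ± 0.18). SNAI1 lay at 1.26 to 2.995 CPM with TGF-β1 and 0 to 1.43 CPM with GSK126 and did not pass (1.25 ± 0.77).

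Of 27 mesenchymal genes tested, 16 were higher with TGF-β1 and 3 were lower, with a median of 1.10. CDH2, N-cadherin, had 427, 463, 442, 366 and 427 CPM with TGF-β1 and 153, 133, 114, 137 and 127 CPM with GSK126 (1.63 ± 0.16). FN1, fibronectin, had 1535, 1308, 1837, 1185 and 1411 CPM with TGF-β1 and 622, 788, 1058, 574 and 1001 CPM with GSK126 (0.79 ± 0.21, adjusted p = 0.0126). Both genes were higher in every TGF-β1 library than in any GSK126 library, and without GSK126 high-gate library A FN1 did not pass (0.63, adjusted p = 0.199). VIM, the intermediate filament vimentin, had 1950, 1942, 2283, 1641 and 2113 CPM with TGF-β1 and 1597, 1380, 1741, 1764 and 1841 CPM with GSK126, and these overlapped (0.17 ± 0.16, adjusted p = 0.433; 0.34 and adjusted p = 0.0133 without TGF-β1 high-gate library B). CD44, an adhesion receptor, did not pass either (-0.24 ± 0.16, adjusted p = 0.275). FAP, a protease of activated fibroblasts, averaged 34.0 CPM with TGF-β1 and 1.27 CPM with GSK126 (4.62 ± 0.29). The 3 lower genes were POSTN, periostin (-3.04 ± 0.24), DPYSL3 (-1.68) and AXL, a receptor tyrosine kinase linked to EMT. AXL had 164, 123, 184, 142 and 136 CPM with TGF-β1 and 611, 374, 377, 605 and 571 CPM with GSK126 (-1.86 ± 0.19, adjusted p = 3.48e-06), with no overlap. Markers of other cell types that a sample might hold, 30 genes in all, summed to 128 ± 71.8 CPM with TGF-β1 and 66.1 ± 27.2 CPM with GSK126 (SD, n = 5 each, exact permutation p = 0.0556, adjusted p = 0.0926, and adjusted p = 0.0833 with the gates weighed equally and treatments permuted within gates), with 253 CPM in TGF-β1 high-gate library B. Their fibroblast genes summed to 37 to 101 CPM with TGF-β1 and 8.27 to 31.6 CPM with GSK126, and of these LUM passed the test (1.98). Markers of other types passed too, the endothelial TEK (2.03) and the neural SNAP25 (0.87), both higher with TGF-β1 with overlapping libraries. TEK lost the call in 4 settings and SNAP25 in 14. The part of such markers in the mesenchymal result was not tested.

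Epithelial genes divided. Of 32 tested, 6 were higher with TGF-β1 and 9 lower, with a median of -0.50, and without TGF-β1 high-gate library B 9 and 13 of 31 were. CDH1, E-cadherin, was scarce in both, at 3.39, 2.81, 0.333, 11.3 and 1.26 CPM with TGF-β1 and 7.11, 5.96, 5.61, 9.16 and 6.56 CPM with GSK126 (-1.07 ± 0.58, adjusted p = 0.192). Its highest value stood in TGF-β1 high-gate library B, the library with the most background reads, and the other 4 TGF-β1 libraries lay below all GSK126 libraries. Without that library CDH1 was lower past the test (-1.95, adjusted p = 0.000268), as it was with the background as a covariate (-1.99), by limma-voom (-1.86) and in the fit of all 28 libraries (-1.03). EPCAM, another epithelial adhesion protein, had 3.26 to 7.09 CPM with TGF-β1 and 5.99 to 10.3 CPM with GSK126 (-0.66 ± 0.30, adjusted p = 0.117). CLDN2, a pore-forming claudin (-4.02 ± 0.18), and the desmosomal PKP3 (-1.72) were lower. JUP, the plakoglobin of desmosomes and adherens junctions, averaged 310 CPM with TGF-β1 and 51.3 CPM with GSK126 (2.46 ± 0.25), and DSC2, a desmosomal cadherin, 143 and 34.2 CPM (1.98 ± 0.15). CLDN4 (1.72), CDS1 (2.32), F11R (1.22) and CLDN1 (0.57, with overlapping libraries) were the other higher genes.

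**Figure D3:**
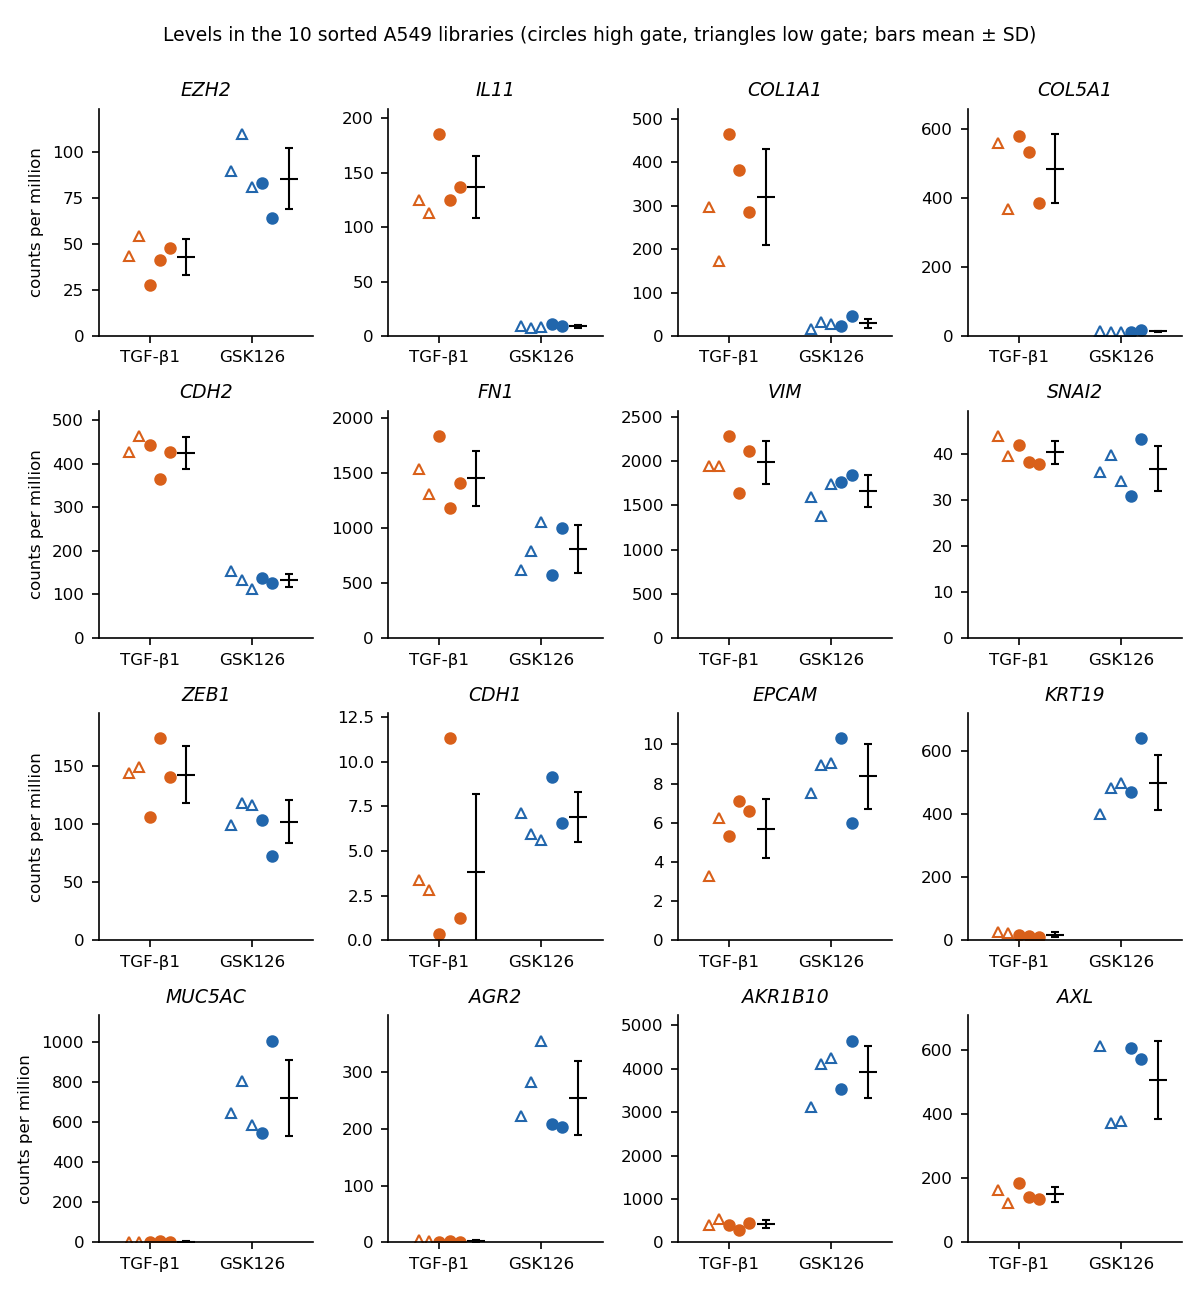
Levels of 16 genes in CPM in the 5 TGF-β1 (orange) and 5 GSK126 (blue) libraries, filled circles for the high gate and open triangles for the low gate, with the mean ± SD as bars (the bar of CDH1 is cut at 0). COL5A1, IL11, KRT19, MUC5AC, AGR2, AKR1B10 and AXL separate the treatments, and VIM, SNAI2 and EPCAM overlap.

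Keratins and epithelial transcription factors also moved apart. Of 17 keratins tested, 4 were higher with TGF-β1 and 7 lower (median -0.86). KRT19 had 26.6, 24.2, 15.98, 12.2 and 11.6 CPM with TGF-β1 and 401, 483, 499, 470 and 640 CPM with GSK126, without overlap. KRT8 (-0.86 ± 0.18) and its partner KRT18 (-1.09 ± 0.17), the keratins of simple epithelium, were lower by less, and KRT6A, a keratin of stressed squamous epithelium, averaged 112 CPM with TGF-β1 and 8.59 CPM with GSK126 (3.44 ± 0.25). KRT14 (4.62) and KRT16 (1.79), also squamous keratins, were higher at low levels. Of 17 epithelial factors, 3 were higher and 5 lower (median -0.26). The pioneer factor FOXA1 had 83.1, 70.5, 111, 80.2 and 87.5 CPM with TGF-β1 and 22.8, 23.3, 22.02, 23.3 and 31.6 CPM with GSK126 (1.69 ± 0.17), and HNF4A, a regulator of gut and liver epithelium, had 35.7 to 52.3 CPM with TGF-β1 and 6.87 to 12.3 CPM with GSK126 (2.12 ± 0.19). FOXA2, the close relative of FOXA1, was lower (-1.72 ± 0.18), with the epithelial ETS factors ELF3 (-1.85 ± 0.17) and EHF (-2.14).

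Of 30 collagens tested, 14 were higher with TGF-β1 and 3 lower, with a median of 1.12 (0.71 without TGF-β1 high-gate library B, with 14 higher and 6 lower of 28). COL1A1, the main chain of interstitial collagen I, had 297, 172, 465, 383 and 286 CPM with TGF-β1 and 16.5, 32.3, 28.5, 21.8 and 45.0 CPM with GSK126 (3.29 ± 0.27). COL5A1, which nucleates collagen I fibrils, had 558, 368, 579, 531 and 384 CPM with TGF-β1 and 13.8, 10.9, 12.5, 12.6 and 16.5 CPM with GSK126 (5.07 ± 0.22). The basement membrane chains COL4A1 (3.90 ± 0.19) and COL4A2 (2.97 ± 0.20) were higher together. COL18A1 (-1.61) was lower, and COL4A6 (-1.68) and COL6A1 (-0.91) were lower with overlapping libraries. Among 18 enzymes that modify or crosslink collagen, 7 were higher and 3 lower (0 lower without GSK126 high-gate library B or TGF-β1 low-gate library C), led by the prolyl hydroxylases P4HA3 (4.21 ± 0.21) and P4HA2 (1.64 ± 0.17) and the procollagen protease BMP1 (1.54 ± 0.15).

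Of 31 matrix glycoproteins, 11 were higher and 9 lower (median 0.26). THBS1, thrombospondin, which can activate latent TGF-β, had 1890, 2091, 1921, 1488 and 1962 CPM with TGF-β1 and 337, 346, 322, 341 and 340 CPM with GSK126 (2.42 ± 0.16). TGFBI averaged 4976 CPM with TGF-β1 and 1553 CPM with GSK126 (1.61 ± 0.16), and SPOCK1, a matrix proteoglycan, 303 and 36.2 CPM (3.05 ± 0.17). NID2, a basement membrane linker, was at 4.06 CPM with TGF-β1 and 49.5 CPM with GSK126 (-3.85). Of 11 laminin chains, 2 were higher and 1 was lower, LAMA3 (-3.08 ± 0.16). LAMB1 was among the higher (0.55 ± 0.14) and lost the call in 6 settings, and without TGF-β1 high-gate library B 4 chains were higher and 2 lower. Of 20 integrins, 7 were higher and 3 lower (7 and 5 of 19 without TGF-β1 high-gate library B), with ITGAV (1.78 ± 0.16) and its partner ITGB6 (1.88 ± 0.18), which together bind and activate latent TGF-β, both higher. Of 30 metalloproteases and their inhibitors, 9 were higher and 6 lower. ADAMTS6 averaged 321 CPM with TGF-β1 and 15.1 CPM with GSK126 (4.41 ± 0.24), and MMP2, a type IV collagenase, 1111 and 153 CPM (2.74 ± 0.24). Of 25 contractile genes, 8 were higher and 1 lower (13 and 1 of 23 without TGF-β1 high-gate library B), with TNS1, a focal adhesion protein, at 4.15 ± 0.21, tropomyosin TPM1 at 1.52 ± 0.17 and the myosin kinase MYLK at -2.87 ± 0.34.

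Target genes of the Hippo effectors YAP and TEAD were divided, with 6 of 28 higher, 11 lower and a median of -0.21. Without TGF-β1 high-gate library B 9 were higher and 11 lower. CCN2 was higher (2.74 ± 0.21), and its relative CCN1 (-0.62, with overlapping libraries), ANKRD1 (-2.50) and the tumour suppressor DLC1 (-3.73 ± 0.28) were lower. Of 15 AP-1 and immediate early genes, 8 were higher and 2 lower (5 higher without GSK126 high-gate library A, and 9 and 3 without TGF-β1 high-gate library B). JUNB, a SMAD3 target, averaged 151 CPM with TGF-β1 and 28.3 CPM with GSK126 (2.33 ± 0.29) and FOSB 26.0 and 4.62 CPM (2.49 ± 0.28), while FOSL1 had 42.0 to 71.9 CPM with TGF-β1 and 214 to 365 CPM with GSK126.

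Secreted signals were more often higher than lower. Of 24 growth factors, 12 were higher with TGF-β1 and 4 lower (median 0.42; 1 to 4 lower with single libraries left out), and of 20 cytokines 12 were higher and 1 lower (median 1.71). WNT7A averaged 39.3 CPM with TGF-β1 and 0.943 CPM with GSK126 (5.13 ± 0.29), and HBEGF, an EGF receptor ligand, 91.7 and 6.95 CPM (3.59 ± 0.23). The related ligands AREG (-0.58) and EREG (-0.66) were lower with overlapping libraries. CXCL8, the neutrophil chemokine IL-8, had 174, 183, 256, 166 and 232 CPM with TGF-β1 and 11.7, 14.9, 28.1, 9.93 and 9.12 CPM with GSK126 (3.87 ± 0.26). CXCL1 (2.39 ± 0.15), CXCL12 (3.75 ± 0.24) and the monocyte chemokine CCL2 (3.66 ± 0.24) were higher as well, and CSF1 was lower (-2.06). Of 16 NF-κB targets 6 were higher and 3 lower (2 higher without GSK126 high-gate library B, and 3 without GSK126 high-gate library A or TGF-β1 low-gate library A), with NFKBIZ (2.25 ± 0.20) above and BIRC3 (-1.23 ± 0.16) and PTGS2 (-1.53 ± 0.27) below. Of 33 receptor tyrosine kinases 5 were higher and 7 lower, but 9 and 6 without TGF-β1 high-gate library A, 6 and 11 of 31 without TGF-β1 high-gate library B, and 3 and 4 without GSK126 high-gate library B or TGF-β1 low-gate library C. RET, the GDNF family receptor, had 14.1, 18.2, 33.3, 35.0 and 37.6 CPM with TGF-β1 and 0.627, 0, 0.864, 0.382 and 0.285 CPM with GSK126 (5.67 ± 0.33).

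Of 20 mucous and secretory genes tested, 0 were higher with TGF-β1 and 10 lower, with a median of -0.89 (-2.67 over the 16 tested without TGF-β1 high-gate library B, with 11 lower). Without TGF-β1 high-gate library A 2 were higher. TFF1, a trefoil peptide, had 2 counts over the 5 TGF-β1 libraries and averaged 8.8 CPM with GSK126. SPDEF, the goblet cell factor, averaged 0.581 CPM with TGF-β1 and 4.16 CPM with GSK126 (-3.13). Of 27 genes of liver and gut, 4 were higher and 9 lower, with the tetraspanin-like TM4SF4 (-3.95 ± 0.16) beside the fibrinogens, although HNF4A and the bile acid enzyme BAAT (2.53) were higher.

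Targets of NRF2 (gene NFE2L2), the factor that raises antioxidant and detoxifying enzymes and is held down by KEAP1, were lower almost throughout. Of 46 tested, 38 were lower with TGF-β1 and 1 was higher, with a median of -1.02. The loss of KEAP1 function in A549 is known to keep this programme high. AKR1B10, an aldo-keto reductase, had 405, 539, 407, 286 and 450 CPM with TGF-β1 and 3124, 4106, 4240, 3532 and 4645 CPM with GSK126 (-3.28 ± 0.21, adjusted p = 2.05e-08). ALDH3A1, an aldehyde dehydrogenase, had 202, 205, 287, 209 and 261 CPM with TGF-β1 and 1627, 2010, 2146, 1824 and 2948 CPM with GSK126 (-3.30 ± 0.20). GPX2 had 1.17, 1.87, 1.33, 1.33 and 0.524 CPM with TGF-β1 and 73.0, 125, 111, 91.2 and 97.2 CPM with GSK126. In these 3 genes each TGF-β1 library was several-fold below each GSK126 library. The rate-limiting enzyme of glutathione synthesis was lower in both its subunits, GCLC (-1.91) and GCLM (-1.43), as were the thioredoxin reductase TXNRD1 (-1.17 ± 0.15) and the quinone reductase NQO1 (-1.07 ± 0.18). NFE2L2 itself averaged 76.7 CPM with TGF-β1 and 106 CPM with GSK126 (-0.48 ± 0.13, adjusted p = 0.0132), and KEAP1 35.9 and 63.0 CPM (-0.89 ± 0.15). The higher gene was the transporter ABCC5 (0.72 ± 0.14), and HMOX1, heme oxygenase, did not pass (0.06 ± 0.21). The count of 38 lower and 1 higher was the same without TGF-β1 high-gate library B and with the background as a covariate, and without GSK126 high-gate library B 24 were lower and 0 higher. AKR1B and AKR1C genes are near-identical copies, and their separate values are uncertain.

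NRF2 with small MAF proteins binds the antioxidant response element, whose core is TGACNNNGC, and AP-1 binds TGACTCA. Both were searched on both strands in the RefSeq promoter windows of build GRCh38.p14, from 250 bases before to 50 after each start. A site that fits both patterns counts for both. Windows were found for 27 of the 39 NRF2 targets past the test, of which 7 (25.9%) held TGACNNNGC and 2 (7.41%) held TGACTCA. For the TGF-β targets past the test, 22 of 29 had a window, of which 0 held TGACNNNGC and 1 (4.55%) held TGACTCA. Over all 27305 windows the shares were 13.6% and 4.92%, over genes lower with TGF-β1 15% and 2.86%, and over genes higher 12.5% and 5.12%. These matches describe the letters in the window and are not evidence of binding. The 250 bases before the start of 4 of these genes, those with a match that lies wholly before the start and the smallest adjusted p, are shown 5′ to 3′ on the gene's strand with the match in capitals, because they belong to the 3 NRF2 targets furthest below GSK126 and to IL11, one of the TGF-β targets furthest above it. GPX2 lies at chr14:64942746-64942995 on the minus strand, CYP4F11 at chr19:15934868-15935117 on the minus strand, OSGIN1 at chr16:83952990-83953239 on the plus strand and IL11 at chr19:55370464-55370713 on the minus strand. The match starts 122, 156, 97 and 96 bases before the start in that order.
GPX2: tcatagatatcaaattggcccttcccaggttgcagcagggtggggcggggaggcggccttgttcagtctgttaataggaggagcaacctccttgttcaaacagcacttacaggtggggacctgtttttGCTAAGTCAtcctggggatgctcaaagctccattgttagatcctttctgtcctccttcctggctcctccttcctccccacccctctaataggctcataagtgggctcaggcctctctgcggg
CYP4F11: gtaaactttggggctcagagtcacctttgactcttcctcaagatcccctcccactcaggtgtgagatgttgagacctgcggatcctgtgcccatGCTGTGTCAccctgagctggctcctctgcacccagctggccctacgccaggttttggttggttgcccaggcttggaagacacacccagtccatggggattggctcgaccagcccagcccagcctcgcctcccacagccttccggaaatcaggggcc
OSGIN1: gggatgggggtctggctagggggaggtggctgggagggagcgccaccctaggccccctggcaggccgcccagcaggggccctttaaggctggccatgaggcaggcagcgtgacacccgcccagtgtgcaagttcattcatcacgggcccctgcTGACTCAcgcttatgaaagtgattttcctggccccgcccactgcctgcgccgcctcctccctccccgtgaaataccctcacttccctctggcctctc
IL11: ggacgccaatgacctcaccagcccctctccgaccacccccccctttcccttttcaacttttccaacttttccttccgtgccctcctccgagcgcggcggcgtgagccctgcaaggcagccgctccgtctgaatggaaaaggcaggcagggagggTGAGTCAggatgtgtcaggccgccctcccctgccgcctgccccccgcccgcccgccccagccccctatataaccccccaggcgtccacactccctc
In GPX2 and CYP4F11 the capitals mark TGACNNNGC read on the opposite strand, and in OSGIN1 and IL11 they mark TGACTCA and its reverse complement TGAGTCA. The levels of OSGIN1, an oxidative stress-induced growth inhibitor, averaged 4.79 CPM with TGF-β1 and 52.5 CPM with GSK126 (-3.62), and those of CYP4F11, a fatty acid hydroxylase, 5.36 and 68.7 CPM (-3.83 ± 0.20).

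Other metabolic groups were lower with TGF-β1 more often than higher. Of 15 genes of drug metabolism and transport, 0 were higher and 10 lower (median -1.44). AHR, the aryl hydrocarbon receptor, had 36.5, 35.1, 47.6, 26.4 and 35.2 CPM with TGF-β1 and 209, 251, 283, 200 and 250 CPM with GSK126 (-2.77 ± 0.20), and its targets CYP1B1 (-1.96 ± 0.19), TIPARP (-1.44), AHRR (-1.96) and CYP1A1 (-2.67) were lower too, AHRR and CYP1A1 with overlapping libraries. ABCG2, a drug efflux pump, had 2.66 to 8.20 CPM with TGF-β1 and 29.8 to 37.6 CPM with GSK126 (-3.30 ± 0.23). Of 30 cholesterol synthesis genes 1 was higher and 13 lower (median -0.56; 5 lower without GSK126 high-gate library B or TGF-β1 low-gate library C). Of 32 genes of hypoxia and glycolysis 4 were higher and 14 lower (5 lower without GSK126 high-gate library B and 7 without TGF-β1 low-gate library C), among them GAPDH (-0.78), and CA12, a carbonic anhydrase, had 81.9 CPM with TGF-β1 and 558 CPM with GSK126 (-2.81 ± 0.15). VEGFA was higher (0.94). Of 29 genes of endoplasmic reticulum stress and amino acid synthesis 1 was higher and 13 lower (4 and 12 without TGF-β1 high-gate library B; 5 lower without GSK126 high-gate library B and 7 without TGF-β1 low-gate library C), with TRIB3 (-1.77 ± 0.21) and ASNS (-1.02 ± 0.17) below.

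Genes of cell division were lower as a group. Of 63 tested, 0 were higher with TGF-β1 and 60 lower, with a median of -1.03, and all 63 had the same sign in both gates. MKI67, the proliferation antigen Ki-67, had 528, 461, 474, 564 and 490 CPM with TGF-β1 and 1559, 1460, 1169, 1484 and 1648 CPM with GSK126 (-1.63 ± 0.14, adjusted p = 5.17e-07). The S phase factor E2F8 (-2.50 ± 0.19) and the mitotic activator CDC20 (-1.56 ± 0.15) were lower by similar or larger amounts. The cyclin-dependent kinase inhibitor CDKN1A (p21) had 91.2, 61.3, 167, 96.2 and 114 CPM with TGF-β1 and 18.4, 29.3, 31.1, 19.8 and 35.1 CPM with GSK126 (1.81 ± 0.25). Of 44 replication-dependent histone genes, which are expressed in S phase and whose transcripts mostly lack poly(A) tails, 0 were higher and 43 lower (median -1.43). Their sum was 3195 ± 448 CPM with TGF-β1 and 7345 ± 1042 CPM with GSK126 (SD, n = 5 each), without overlap (exact permutation p = 0.00794, the smallest that 252 arrangements allow, adjusted p = 0.0198 over 5 shares). The difference was -3577 CPM in the low gate and -5092 CPM in the high gate, and with both gates weighed equally and treatments permuted within gates it was -4335 CPM (exact permutation p = 0.01, the smallest that 100 such arrangements allow, adjusted p = 0.025). Histone genes are close copies and their separate values are uncertain. In bulk RNA, fewer dividing cells and less of these transcripts per cell cannot be told apart.

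In the group of PRC2 subunits and H3K27 demethylases, 2 of 14 were higher with TGF-β1 and 3 lower. EZH2, the enzyme that GSK126 inhibits, had 43.5, 54.1, 27.6, 41.4 and 47.5 CPM with TGF-β1 and 89.9, 110, 80.8, 83.2 and 63.9 CPM with GSK126 (-0.99 ± 0.17, adjusted p = 0.000378). Its transcript is known to follow the cell cycle, and a transcript level says nothing of the enzyme's activity. The core subunits SUZ12 (-0.19 ± 0.15) and EED (-0.32 ± 0.14) and the paralogue EZH1 (-0.10 ± 0.15) did not pass, and the accessory subunits PHF19 (-1.37 ± 0.15) and EPOP (-1.53 ± 0.36) were lower, EPOP not without GSK126 high-gate library B (adjusted p = 0.129). JARID2, a PRC2 cofactor (1.44 ± 0.16), and the demethylase KDM6B (2.01 ± 0.22) were higher. Of 23 HOX genes, a classical set under H3K27me3, HOXB3 was higher (1.09 ± 0.28) and HOXC13 lower (-1.94 ± 0.53), and both lost the call without single libraries. Without TGF-β1 high-gate library B 1 of 21 HOX genes was higher and 2 were lower. Of 60 other developmental factors 5 were higher and 12 lower (8 and 15 of 51 without TGF-β1 high-gate library B, and 8 higher without TGF-β1 high-gate library A), with TFAP2C (-2.62 ± 0.23) and SOX2 (-2.19) among the lower. Of 4 germline genes tested, 0 passed in either direction, but 1 of 3 was higher without TGF-β1 high-gate library B. PRAME stood at 120 to 150 CPM with TGF-β1 and 98.8 to 137 CPM with GSK126 (0.15 ± 0.16).

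With all 10 libraries in the main test, genes of antigen presentation were lower where they passed. Of 19 MHC class I genes 0 were higher with TGF-β1 and 7 lower (1 and 7 without TGF-β1 high-gate library B). HLA-B had 6.43 to 7.96 CPM with TGF-β1 and 12.9 to 25.9 CPM with GSK126 (-1.604 ± 0.22), and HLA-C (-1.29 ± 0.17) and the immunoproteasome subunit PSMB8 (-1.66 ± 0.20) were lower too. HLA genes are polymorphic and alike, so reads of 1 can be counted for another. Of 7 MHC class II genes HLA-DRA (-2.99) and the class II activator CIITA (-1.67, with overlapping libraries) were lower at low levels, and both lost the call in several settings. Without TGF-β1 high-gate library B 5 of 6 were lower (median -2.31, against -1.51 with all libraries), with the background as a covariate 5 of 7, and without GSK126 high-gate library B or TGF-β1 low-gate library A 0. Of 39 interferon-stimulated genes 6 were higher, led by IFI44L (2.93 ± 0.24), and 7 lower, led by IFITM2 (-2.37 ± 0.34), and without GSK126 high-gate library B 3 and 4 were. Of 14 complement genes, 1 was higher and 6 lower (2 and 8 of 12 without TGF-β1 high-gate library B). C3 averaged 13.3 CPM with TGF-β1 and 67.3 CPM with GSK126 (-2.41 ± 0.23), and the protective CD59 was the higher gene (1.68 ± 0.18).

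**Figure D4:**
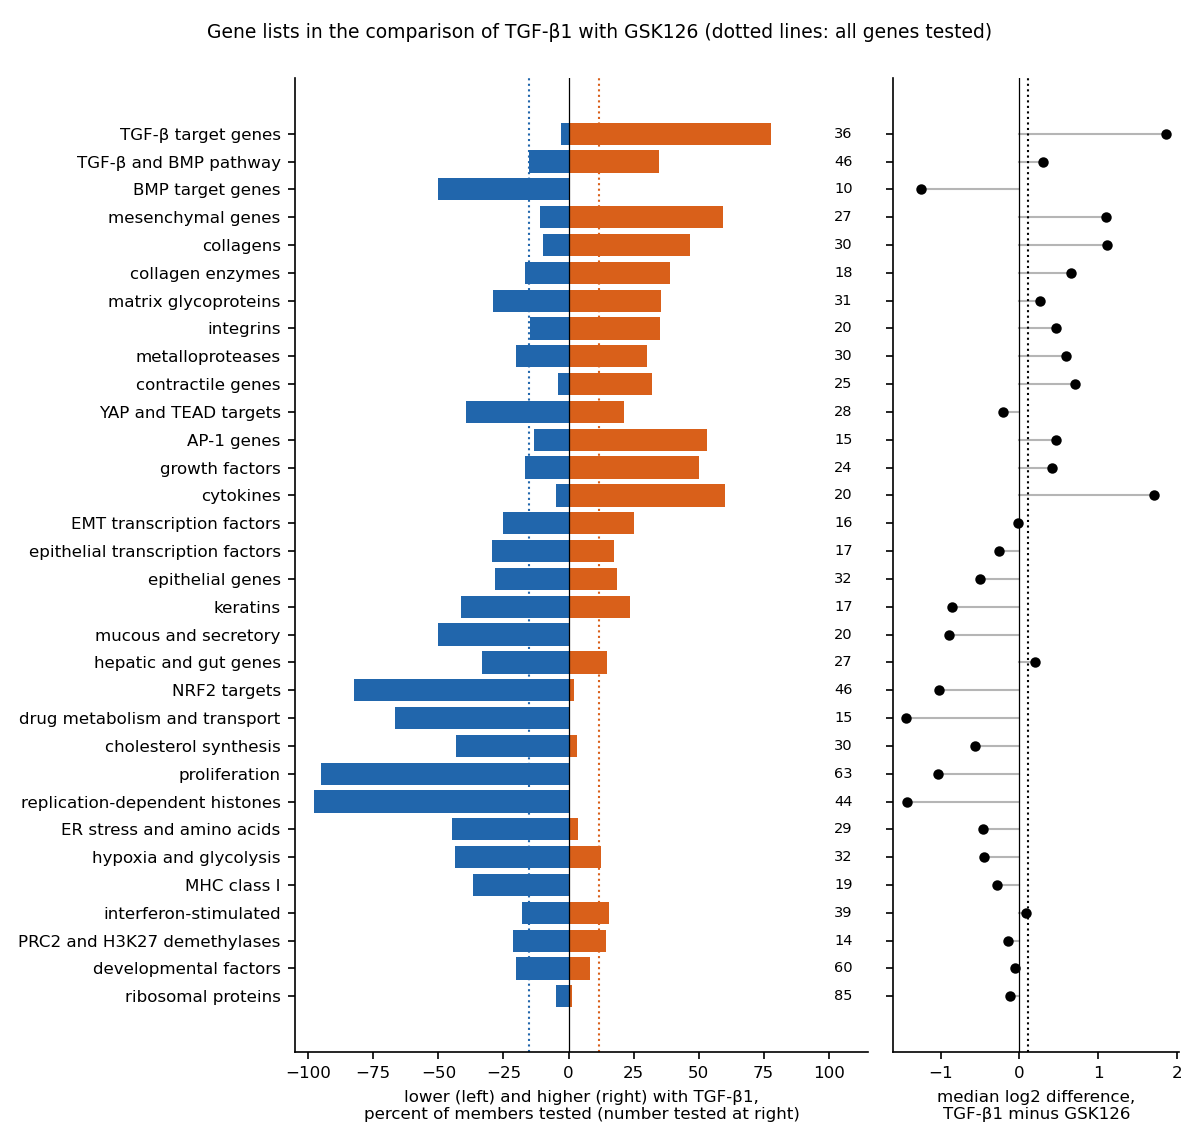
Share of the tested members of 32 gene lists that were higher (orange, to the right) or lower (blue, to the left) with TGF-β1 past the test, and the median log2 difference of each list. Dotted lines give all genes tested, 11.6% higher, 15.2% lower and a median of 0.11. TGF-β targets, cytokines and mesenchymal genes reach furthest to the right, and histone, proliferation and NRF2 genes furthest to the left.

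The difference between the treatments was then taken in each gate. In the high gate 3216 genes (18.8%) passed the test, 1270 higher with TGF-β1 (7.43%) and 1946 lower (11.4%), and in the low gate 1858 genes (10.9%), 906 higher (5.3%) and 952 lower (5.57%). When each gate was fitted alone, 3714 of 3749 genes called in the low gate and tested in the high gate (99.1%) had the same sign in the high gate, and 2224 were called there with that sign. Over all genes, 2716 of 13256 passed in the high gate fitted alone and 3827 of 16444 in the low gate fitted alone. The share of all genes with the same sign in both gates is not given here. These fits share no library, but the low and high gates of one letter may come from one culture, which the labels do not settle. The test of the high-gate minus the low-gate difference called 1 gene (0.00585%), with 555 genes at an unadjusted p under 0.05, and DESeq2 called 8. The gene was DGKI, a diacylglycerol kinase, with 69.9, 72.5 and 60.3 CPM in the TGF-β1 high gate and 2.67 and 1.996 CPM in the GSK126 high gate. In the low gate it had 38.9 and 33.5 CPM with TGF-β1 and 11.1, 9.44 and 10.4 CPM with GSK126. Its difference was thus 4.71 in the high gate and 1.80 in the low gate (2.91 between them, adjusted p = 0.0200). With single libraries left out, 0 to 29 genes were called, 29 of them without GSK126 high-gate library A. The count was 0 without GSK126 low-gate library A, GSK126 low-gate library C or GSK126 high-gate library B. Without TGF-β1 low-gate library C the 1 gene called had a more negative difference in the high gate, so DGKI lost its call there too. The low-gate count was 795 without TGF-β1 low-gate library C, 1043 without TGF-β1 low-gate library A and 3224 without TGF-β1 high-gate library B. The high-gate count was 1004 without GSK126 high-gate library B and 1838 without GSK126 high-gate library A. Leaving out TGF-β1 high-gate library A or B turned the balance in the high gate, to 2278 higher and 1637 lower genes without A and 2093 and 1794 without B, as did leaving out GSK126 high-gate library A (1022 and 816), GSK126 high-gate library B (503 and 501) or TGF-β1 low-gate library C (1199 and 1111).

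Last, the same difference was set against that in H1944, a second lung adenocarcinoma line that carried the reporter and received the same doses for the same time, in a fit of the 22 sorted libraries of both lines. The difference itself was tested in 16928 genes and 3758 (22.2%) passed, 1804 (10.7%) with a more positive difference in A549 and 1954 (11.5%) with a more negative one. VIM differed by 0.17 ± 0.16 in A549 and by 2.74 ± 0.13 in H1944, which left -2.53 ± 0.19 between the lines (adjusted p = 9.87e-11). In A549 it stood at 1986 CPM with TGF-β1 and 1664 CPM with GSK126, and in H1944 at 1478 and 257 CPM. CDH1 had 13.2 CPM with TGF-β1 and 97.3 CPM with GSK126 in H1944, so its difference was -2.76 ± 0.25 there, 1.73 ± 0.45 less negative in A549. In A549 CDH1 was scarce, at 3.82 CPM with TGF-β1 and 6.88 CPM with GSK126. Its A549 difference of -1.07 ± 0.58 became -1.95 without TGF-β1 high-gate library B, so the size of this gap depends on that library. ZEB1 (-2.13 ± 0.18), FN1 (-3.37 ± 0.22), COL1A1 (-3.06 ± 0.26), SNAI2 (-1.38 ± 0.22) and EPCAM (2.53 ± 0.30) had smaller differences in A549 than in H1944. KRT19 (0.92 ± 0.75) and AGR2 (-1.08 ± 0.60) did not differ past the test between the lines, and MUC5AC (-4.98 ± 1.60) and AKR1B10 (-1.11 ± 0.20) had more negative differences in A549. MUC5AC averaged only 0.3125 CPM with TGF-β1 and 3.36 CPM with GSK126 in H1944, against 718.5 CPM with GSK126 in A549. Its low counts limit how large a difference could be seen in H1944.

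The counts by group are read against these shares of 10.7% and 11.5%. By group, 19 of 28 mesenchymal genes had a more negative difference in A549 than in H1944 and 3 a more positive one, with a median of -1.61. Of 37 epithelial genes 23 were more positive and 4 more negative (median 1.62). Of 24 cytokines 13 were more positive in A549 and 1 more negative (median 2.08), and of 16 NF-κB targets 8 and 0. Of 53 histone genes 1 was more positive and 4 were more negative. Of 63 proliferation genes 3 were more positive and 16 more negative. Of 85 ribosomal protein genes 41 were more positive in A549 and 0 more negative. In A549 itself, 1 of 85 was higher with TGF-β1 and 4 were lower, but 9 and 4 without TGF-β1 high-gate library B and 1 and 0 without GSK126 high-gate library A. In H1944 1 was higher and 74 lower, where 21.7% of all genes tested were higher and 23.7% lower (45.4% in all).

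**Figure D5:**
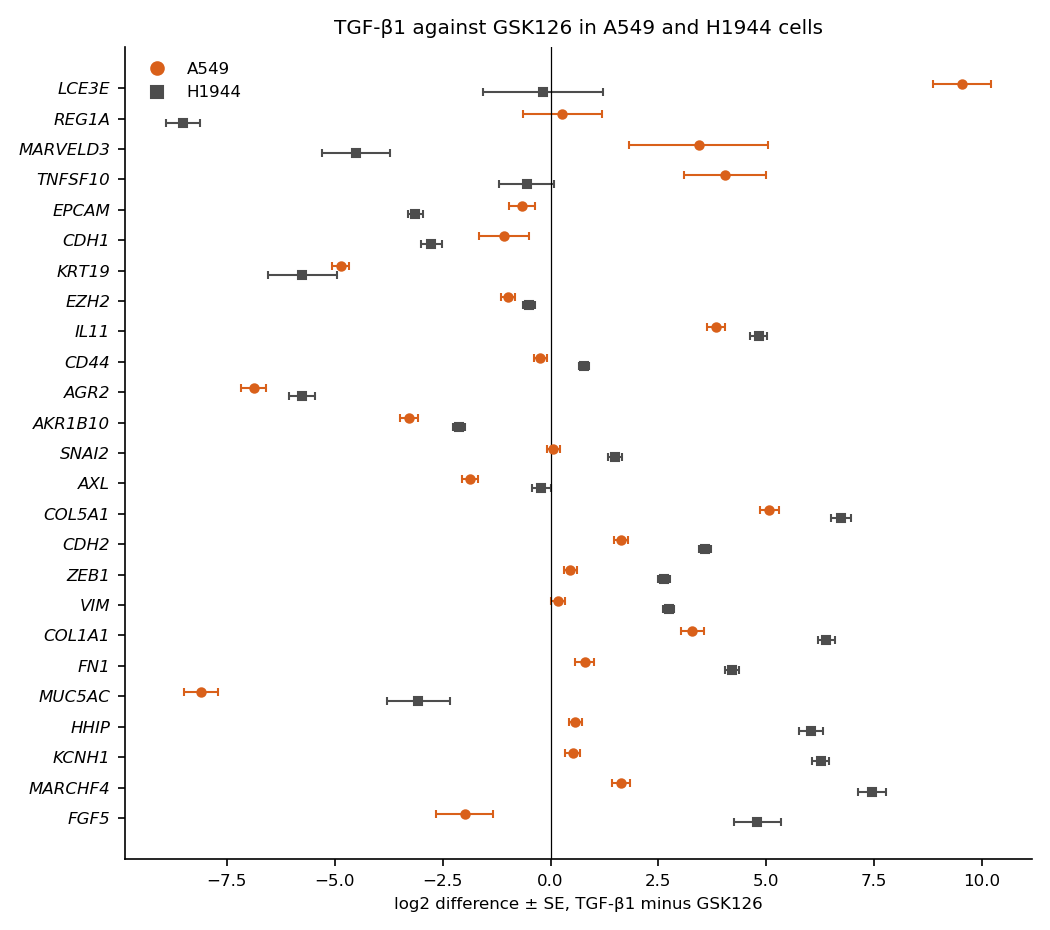
Log2 differences (TGF-β1 minus GSK126) with SE bars in A549 (orange circles) and H1944 (grey squares) for the key genes and the genes in which the lines differed most, sorted by the A549 minus H1944 difference. VIM, FN1, COL1A1 and ZEB1 lie further to the right in H1944, and LCE3E and TNFSF10 lie further to the right in A549. TNFSF10 averaged 3.58 CPM with TGF-β1 and 0.994 CPM with GSK126 in A549, where single counts decide the value, and it lost the A549 call in 1 setting. TRIM15, GSTA1 and C5orf46 were not tested in the A549 fit and are not drawn.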

How the data were processed

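RNA of sorted cells was sequenced, and the authors deposited raw gene counts as whole numbers. The submitters' processing notes name STAR 2.6.0c, HTSeq 0.12.3, bcl2fastq 2.20.0 and the build GRCh38. The annotation release, strand setting, trimming and duplicate removal are not given in the sources used here. Libraries were made from 10 ng of RNA with a stranded total RNA kit, per the labels' protocols, without molecular identifiers, so counting intervals cover counting error only. One TGF-β1 label writes its dose incompletely, and the dose follows the treatment protocol. Of 60487 rows 60483 were Ensembl genes, 56321 with a symbol, and 4 were reporter rows, at most 0.312% of counts. Biotypes came from GENCODE 29, and promoters and their coordinates from RefSeq, build GRCh38.p14.

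The 10 libraries were fitted as 4 groups (treatment by gate) with edgeR 4.0.16 in R 4.3.3 (TMM, filterByExpr, quasi-likelihood F test, Benjamini-Hochberg adjustment over all genes at 0.05). The SE is the log2 difference over the square root of F. The common biological coefficient of variation was 0.293, with 6 residual degrees of freedom. The fit takes libraries as independent. The mVenus row stayed in the fit and out of counts of genes. In simulated counts for 17099 genes, 100 genes were changed 2-fold and 100 genes 4-fold, all above a minimum mean count. The test found 77% of the 2-fold and 93% of the 4-fold changes in the mean of the gates, with 9 false calls. The simulated counts were independent between genes and held no difference in background between libraries. These figures therefore do not cover genes of a few CPM or the background seen in these libraries. Shares were compared by exact two-sided permutation tests (SciPy 1.17.1). Libraries of a group differed by more than counting noise (chi-square per degree of freedom 2.54 or more), so none was taken as a repeat deposit, which does not show that they are separate cultures. Permutation within gates was added after the data were seen.

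Named genes were the 15 highest and 15 lowest coding genes past the test, with 10 CPM or more in the higher treatment, no overlap and the same sign in both gates, 4 lncRNAs each way, the 4 smallest adjusted p of each list, all tested members of the TGF-β, EMT factor and PRC2 lists, and 20 key genes; further list members are given by value, and were chosen after their values were seen. The members, the 51 lists and the tests were chosen with earlier results of these data known. Alternatives were RLE size factors, other filters, DESeq2 1.42.0, limma-voom (limma 3.58.1), more libraries in the fit, a replicate block, a background covariate, single gates and each library left out. Some genes that the rule names are not reported here.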

Additional observations from a re-analysis of the deposited data

Results flagged for a closer look

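In groups of 4 to 10 libraries, a library was listed when its gap to its nearest neighbour exceeded Dixon's 95% critical value, which chance passes in about 1 of 20 groups. Of 50 such tests 2 passed, both in TGF-β1 high-gate library B. CDH1 stood at 11.3 CPM there and at most 3.39 CPM in the other TGF-β1 libraries, and the summed markers of other cell types stood at 253 CPM there and at 72.6 to 111 CPM in the others. The same library had the highest olfactory receptor sum, 311 CPM, and the part of this background in both values was not tested.

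In the main test the treatments differed by another amount in the high than in the low gate for DGKI (2.91, adjusted p = 0.0200). This call did not hold throughout. It was lost without GSK126 low-gate library A, GSK126 low-gate library C, GSK126 high-gate library B or TGF-β1 low-gate library C, and in the fit of all 13 A549 libraries.

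Among coding genes past the test, the difference TGF-β1 minus GSK126 itself differed most positively between A549 and H1944 for LCE3E (9.40 ± 2.27), TRIM15 (9.02 ± 0.96), REG1A (8.84 ± 0.78), MARVELD3 (7.79 ± 1.38) and GSTA1 (7.63 ± 1.34). IGFL3 (9.29, SE 25140) and LCE3D (8.30, SE 12211) had values as large and did not pass (adjusted p = 0.9998 each). Their counts were near 0 with GSK126 and in H1944, where the fit gave no usable SE. That failure does not show that the lines are alike in these genes. LCE3E averaged 27.7 CPM with TGF-β1 and had 0 counts with GSK126 in A549, so its value depends on the prior count. TRIM15, REG1A, MARVELD3 and GSTA1 were at 2.30 CPM or less with either treatment in A549, and in H1944 REG1A averaged 0.167 CPM with TGF-β1 and 94.8 CPM with GSK126. The most negative were FGF5 (-6.70 ± 0.75), C5orf46 (-6.18 ± 0.96), MARCHF4 (-5.79 ± 0.45), KCNH1 (-5.71 ± 0.27) and HHIP (-5.42 ± 0.35). KCNH1 averaged 17.9 CPM with TGF-β1 and 12.9 CPM with GSK126 in A549, and 102.5 and 1.505 CPM in H1944. FGF5 was lower with TGF-β1 in A549 (1.22 CPM, against 4.65 CPM with GSK126) and higher in H1944 (10.5 CPM, against 0.394 CPM). Its call in A549 was lost in 9 of the alternative settings.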

How the results depend on the processing

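In the mean of the gates, 4579 genes passed in the main test, and 3176 (no filter on low counts) to 5985 (limma-voom) in the other settings that kept all 10 libraries. Leaving out single libraries gave 2270 to 5603 genes, 795 to 3224 in the low gate, 1004 to 3915 in the high gate, 0 to 29 for the high gate minus the low gate and 2867 to 4255 for A549 minus H1944. Without the filter on low counts the low gate had 1216 genes, the high gate 2127 and the difference of the gates 6. The low gate fitted alone had 3827 genes. For the difference of the gates DESeq2 called 8 genes and the fit of all 13 A549 libraries 0. In the high gate alone the histone sum differed by -5092 CPM. The difference in other cell types' markers ran from 30.4 to 75.55 CPM with single libraries left out and was 63.52 CPM as the mean of the gates (exact permutation p = 0.05 within gates). Its unadjusted exact permutation p was 0.0159 without TGF-β1 high-gate library A, 0.0397 without TGF-β1 high-gate library C and 0.0635 to 0.143 without any other library. The cause of these shifts was not tested.

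The letters A, B and C were not taken as pairs. Across treatments, the deviations of same-letter libraries from their group means had correlations of -0.462 to 0.0361. In a group of 2 libraries the deviations mirror each other, so these correlations cannot decide whether the letters are pairs. The common biological coefficient of variation was 0.245 with the letter as a replicate block and 0.293 without. Low-gate and high-gate libraries of one letter and treatment had correlations of 0.0421 to 0.196, of which 2 of 4 exceeded 0.1. With the letter as a replicate block, 4091 genes passed in the mean of the gates (1663 higher, 2428 lower), 1621 in the low gate, 2890 in the high gate, 1 between the gates and 3853 between the lines. Of 288 named genes tested, 212 passed, 182 of them in every setting; 30 lost the call in at least 1, and 0 reversed. Of the 76 that did not pass, 40 passed in at least 1 setting. Of 102 counts of list members higher or lower, 3 to 27 moved by over 1.5 times with single libraries left out, 27 without GSK126 high-gate library B. Depth limits genes of a few CPM, where single counts decide the value.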

Other observations

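Of 1788 long non-coding RNAs tested, 174 were higher with TGF-β1 (9.73%, against 11.6% of all genes) and 36 lower (2.01%, against 15.2%). Without TGF-β1 high-gate library B 218 of 1106 (19.7%, against 19.1%) were higher and 49 (4.43%, against 18.4%) lower. The shares compared here are not matched for level. Of 9862 coding genes with 10 CPM or more in the higher treatment, 1481 were higher and 2393 lower. Median library totals were 6410323 counts with TGF-β1 and 2619503 counts with GSK126. The part of level and depth in this contrast was not tested. LINC02777 averaged 13.4 CPM with TGF-β1 and 0.51 CPM with GSK126, ENSG00000269729 33.1 and 0.993 CPM (5.09), and FLJ16779 37.2 and 2.47 CPM (4.18). LINC02870 averaged 1.43 CPM with TGF-β1 and 9.31 CPM with GSK126 (-2.78), and ENSG00000272405 6.51 and 33.7 CPM (-2.43). Antisense transcripts among them cannot be told from their partners.

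Mitochondrial genes held 6.34 ± 0.335% of counts with TGF-β1 and 5.24 ± 0.325% with GSK126 (SD, n = 5 each, exact permutation p = 0.00794, adjusted p = 0.0198), without overlap. With the gates weighed equally and treatments permuted within gates the adjusted p was 0.025. Of 23 genes of cell death, 8 were higher and 3 lower, and 4 higher without GSK126 high-gate library A, GSK126 high-gate library B or TGF-β1 low-gate library C. BCL2L11, the BH3 protein BIM, was higher (1.31), as was MCL1 (0.76), and BCL2L1, the survival protein BCL-XL, was lower (-0.70). Of 9 S100 genes, S100A16 was higher (0.85) and 4 were lower, S100A6 by -1.34, but 4 were higher and 4 lower without TGF-β1 high-gate library B or with the background as a covariate, and 4 and 3 of 8 among coding genes of at least 5 CPM.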
